A study of Drosophila melanogaster with 12 samples.

Results

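Mitochondrial ribosomal proteins build the ribosome that works inside mitochondria, and their transcripts were followed here in the fat body of female Drosophila melanogaster larvae. The genes were taken by name, as every symbol of the count table that begins with mRpL (large subunit) or mRpS (small subunit). The rule gave 72 of 15222 genes, 46 of the large and 26 of the small subunit. By the numbers of the nomenclature alone, 42 were classed as relatives of bacterial ribosomal proteins and 30 as found in mitochondria only. The homology of single genes was not checked, so some may be misplaced. A read was counted for 71 of the 72, and 70 had enough counts to be tested. mRpL53 had 0 counts in all 12 libraries and mRpL41 had 70 counts in all, and both were left out of the tests.

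The fat body is the larval organ that combines the storage work of liver and fat tissue. Fat bodies were collected at the wandering stage of the third instar, freed by shearing and spun down, and total RNA was depleted of ribosomal RNA before sequencing. All larvae came from mothers with UAS-Dcr2, which strengthens RNA interference, and r4-GAL4, which drives UAS constructs in the fat body. The fathers carried UAS-InRi (stock 992), from which double-stranded RNA directed at InR, the insulin receptor gene, is made, or were the control strain w1118 (stock 60000), so control larvae also carried driver and Dcr2. Only 1 interference stock was used. At 25 °C the offspring grew on food with 0.7 M sucrose, a high-sugar diet, or 0.15 M sucrose. This gave 4 groups of 3 libraries: InRi on 0.7 M, control on 0.7 M, InRi on 0.15 M and control on 0.15 M.

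Mitochondria carry a small genome of their own that encodes core subunits of the respiratory chain, and only the mitochondrial ribosome can translate it. Its RNA comes from the mitochondrial genome, while its proteins are encoded in the nucleus, made in the cytosol and imported. The small subunit holds the messenger and decodes it. The large subunit joins the amino acids and lets the new chain out near the inner membrane. Insulin signalling promotes growth and ribosome production in fly tissues, and mRpL12 of the stalk that recruits elongation factors is known in flies for its part in growth driven by cyclin D and Cdk4.

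Library totals ran from 872755 to 7114144 counts, and levels are CPM, counts per 1000000 of the TMM-scaled library size. The targeted gene itself, InR, had 109, 163 and 148 CPM in InRi-labelled libraries on 0.7 M sucrose, against 56.4, 45.4 and 55.5 CPM in control. Its level on 0.15 M sucrose was 151, 133 and 116 CPM in InRi-labelled libraries, against 61.1, 26.04 and 43.1 CPM in control. It was thus higher where the labels would have it lower (log2 fold change 1.51 over both diets, SE 0.21, edgeR adjusted p = 0.000716), and the genotype is called InRi-labelled for that reason. Control 0.15 M replicate 2 stood apart: transcripts of the mitochondrial genome took 0.0451% of its counts, against 0.776% to 6.67% in the other libraries, and 7628 genes were detected in it, against 9214 to 11312. Fat body markers such as the storage proteins and the lipoprotein gene Rfabg summed to 161055 to 356458 CPM over all libraries. Nothing in the labels says that the libraries of a group came from separate cultures, so p-values here speak of the spread among libraries, which may be technical.

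The mitochondrial ribosomal protein genes were expressed at low levels. Together they took 0.0366% to 0.0680% of the counts of a library, which is 553 to 3372 reads, with a median of 6 to 40 reads per gene. Per kilobase of exon the means over the 12 libraries ran up to 22.3 CPM per kb for mRpL36, a small zinc-binding protein of the large subunit. mRpL28 followed at 22.04, mRpL22 at 21.6, mRpS9 at 20.9 and mRpS7 at 17.9 CPM per kb. At the other end mRpL53 was at 0, where 3 counts in a library would be 0.423 to 3.27 CPM. mRpL21 had 2.15, mRpL41 2.31, mRpL37 3.56 and mRpS18B 3.78 CPM per kb. These ends leaned in part on control 0.15 M replicate 2: without it mRpL13 had 2.44 CPM per kb, against 3.90 with it, and mRpL33 (17.9) lay above mRpS7 (17.1). Lengths were 327 to 2078 bases of exon, from a later annotation than the one used for counting.

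Most of these genes had modest fold changes towards lower levels in InRi-labelled libraries than in control. Averaged over both diets, 58 of the 70 tested had a log2 fold change below 0, where 51.2% of all 8662 tested genes did, and their median was -0.40 against -0.01 for all genes. Of the 4919 tested genes within the same range of mean CPM the median was -0.05. For single genes, edgeR's quasi-likelihood test called 3 lower and 0 higher at an adjusted p under 0.05: mRpL14, mRpL36 and mRpL51. Among all tested genes 11.4% were called, 5.13% as lower, so 3 of 70 is near that background. Leaving out 1 library at a time moved the count to 14 without control 0.15 M replicate 2, where the share of all genes called also rose to 22.8%. It moved to 7 without control 0.15 M replicate 1. It moved to 2 without control 0.15 M replicate 3, control 0.7 M replicate 1 or InRi 0.7 M replicate 1, and to 1 without any 1 of the other 7. The share of all genes called in these other fits is not given here. At an unadjusted p under 0.05, 16 members were lower and 0 higher, and 13.6% of all genes were lower by this measure. In simulated data the test recovered 44% of 2-fold changes in this comparison and 98% of 4-fold changes. In bulk tissue, fewer cells of a type and less RNA per cell cannot be told apart.

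**Figure D1:**
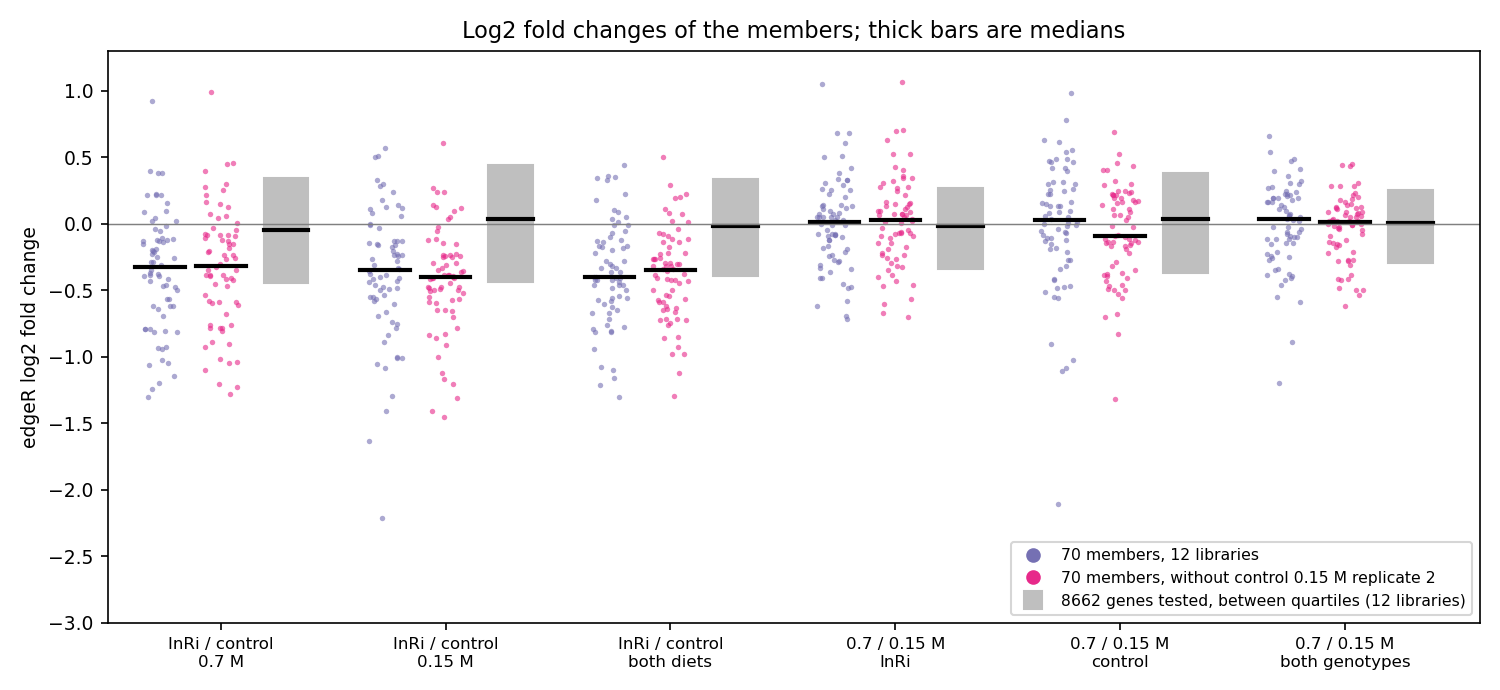
Log2 fold changes of the 70 tested mitochondrial ribosomal protein genes in each comparison, as points, with 12 libraries (violet) and without control 0.15 M replicate 2 (pink). Thick bars are medians, and grey boxes run between the quartiles of all 8662 tested genes. In the 3 comparisons of InRi-labelled libraries with control the members' medians lie at -0.33, -0.35 and -0.40, and in the sucrose comparisons they lie near 0.

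The shift was much the same on each diet, and the 2 diets share no library. On 0.7 M sucrose 56 of the 70 genes were below 0 (53.3% of all genes), with a median of -0.33 against -0.04 for all genes. On 0.15 M sucrose 56 of the 70 were again below 0 (48% of all genes), with a median of -0.35 against 0.03. On both diets 47 of 70 genes were below 0 (67.1%, against 33.9% of all genes), and 5 were above 0 on both (7.14%, against 32.6%). Those 5 were mRpL15, mRpL35, mRpL39, mRpS5 and mRpS9, a set that changed when control 0.15 M replicate 2 was left out. The remaining 18 had opposite signs on the 2 diets (25.7%, against 33.4%). The 0.15 M median rested in part on 1 library: it was -0.18, with 44 of 70 below 0, when control 0.15 M replicate 3 was left out. Likewise the 0.7 M median was -0.21 and the median over both diets -0.26 when control 0.7 M replicate 2 was left out.

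No single gene passed the test within a diet when all 12 libraries were fitted. On 0.7 M sucrose edgeR called 0 of 70 members, where it called 5.41% of all genes and 1.79% as lower, and at an unadjusted p under 0.05 it had 7 members lower (8.25% of all genes) and 0 higher. DESeq2 also called 0 there, and limma-voom with sample quality weights called 3. On 0.15 M sucrose edgeR called 0 of 70, where it called 1.73% of all genes and 0.773% as lower, and at an unadjusted p under 0.05 it again had 7 members lower (10.8% of all genes) and 0 higher. DESeq2 called 1 and limma-voom 2. On each diet both tools also called more of all genes than edgeR did, with the counts given in the last section. The simulated data gave a recovery of only 5% of 2-fold changes in either comparison, with 78% of 4-fold changes on 0.7 M and 71% on 0.15 M sucrose. Those changes were placed in genes averaging at least 5 CPM, and members such as mRpL34 (3.41 CPM) and mRpL21 (3.64 CPM) averaged less. Recovery for such members was not measured.

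Without control 0.15 M replicate 2 the medians moved little and more genes were called. In that fit 13 members were lower and 1 was higher in InRi-labelled libraries over both diets, and 22.8% of all genes were then called (11% as lower, 11.8% as higher). The median was -0.35, and 60 of 70 genes were below 0. The 13 were mRpL14, mRpL20, mRpL27, mRpL34, mRpL36, mRpL46, mRpL49, mRpL51, mRpL54, mRpS18A, mRpS21, mRpS24 and mRpS31, and the gene that was higher was mRpS9. On 0.7 M sucrose alone 7 of 70 were then lower, where 19% of all genes were called and 7.72% as lower. That comparison holds none of the library's own values, and its median was -0.32 with 55 of 70 below 0, against -0.33 and 56 with the library in the fit. On 0.15 M sucrose 1 of 70 was lower, mRpL36 (log2 fold change -1.12, SE 0.28, adjusted p = 0.0412), where 4.46% of all genes were called and 2.44% as lower. On both diets 49 of 70 genes were then below 0 (70%, against 36.9% of all genes). Above 0 on both were 4 (5.71%, against 33.4%): mRpL39, mRpS29, mRpS5 and mRpS9. mRpL15 and mRpL35 were no longer among them.

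**Figure D2:**
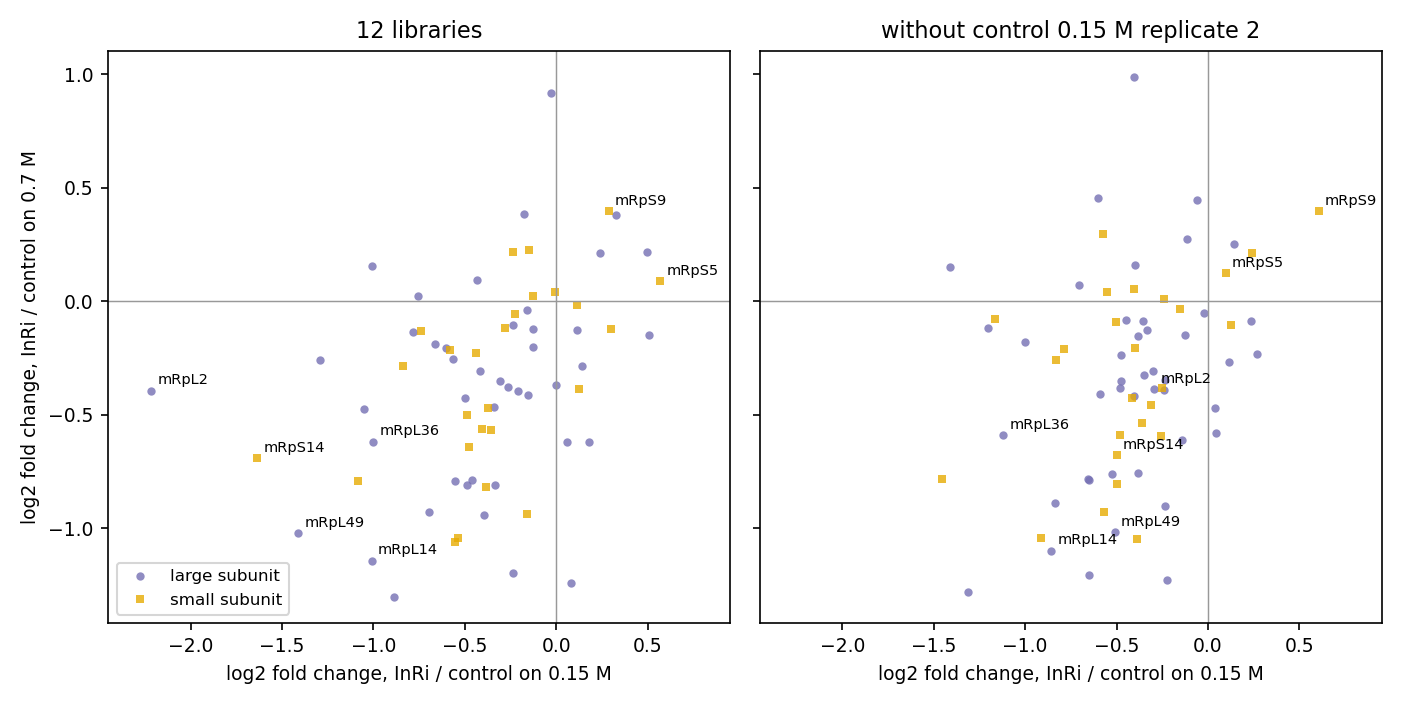
Log2 fold change of InRi-labelled libraries over control on 0.15 M sucrose (x axis) and on 0.7 M sucrose (y axis) for the 70 tested genes, large subunit as circles and small subunit as squares, with 12 libraries (left) and without control 0.15 M replicate 2 (right). With 12 libraries 47 of the 70 points lie below 0 on both axes, and without the library 49 do; mRpL2, mRpS14 and mRpL49 move towards the other genes.

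mRpL14, a relative of a bacterial protein, had the smallest p of all members over both diets. Its product lies on the face of the large subunit that meets the small one. It had 3.91, 2.90 and 2.79 CPM in InRi-labelled libraries on 0.7 M sucrose, against 5.91, 7.75 and 8.71 CPM in control. Its level on 0.15 M sucrose was 4.94, 4.46 and 3.96 CPM in InRi-labelled libraries, against 6.82, 11.9 and 9.13 CPM in control. All 6 InRi-labelled libraries lay below all 6 control libraries. Over both diets it averaged 3.83 ± 0.847 CPM in InRi-labelled libraries and 8.37 ± 2.10 CPM in control (SD, n = 6 each), and it fell with a log2 fold change of -1.08 (SE 0.23, edgeR adjusted p = 0.00889). Leaving out any 1 library kept the call, with adjusted p up to 0.0307.

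mRpL36 is the second of this class, and its bacterial relative is among the last proteins to join the large subunit. It had 13.7, 9.18 and 7.14 CPM in InRi-labelled libraries on 0.7 M sucrose, against 12.8, 19.3 and 14.2 CPM in control. The 0.15 M diet gave it 6.77, 5.29 and 6.85 CPM in InRi-labelled libraries, against 12.5, 10.4 and 14.6 CPM in control. The groups were apart on 0.15 M sucrose, and on 0.7 M InRi-labelled replicate 1 reached into the control range. Over both diets mRpL36 fell (log2 fold change -0.81, SE 0.22, edgeR adjusted p = 0.0290). The call was lost in 8 of 12 omissions of 1 library, and the weakest fit, which lacked control 0.7 M replicate 2, gave 0.0841.

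mRpL51 belongs to the class without a bacterial relative. At 0.7 M it had 6.76, 7.01 and 7.14 CPM in InRi-labelled libraries, against 10.8, 12.6 and 13.1 CPM in control. With 0.15 M sucrose it had 8.04, 9.42 and 10.4 CPM in InRi-labelled libraries, against 13.1, 11.9 and 13.1 CPM in control. It varied least between replicates of all tested members, with an SD of 0.11 on the log2(CPM + 1) scale, and all 6 InRi-labelled libraries lay below all 6 control libraries. Over both diets it fell (log2 fold change -0.62, SE 0.17, edgeR adjusted p = 0.0309). It was lost in 10 of 12 omissions of 1 library and held only without control 0.15 M replicate 1 or replicate 2. The weakest fit, which lacked InRi 0.15 M replicate 1, gave an adjusted p of 0.0971.

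**Figure D3:**
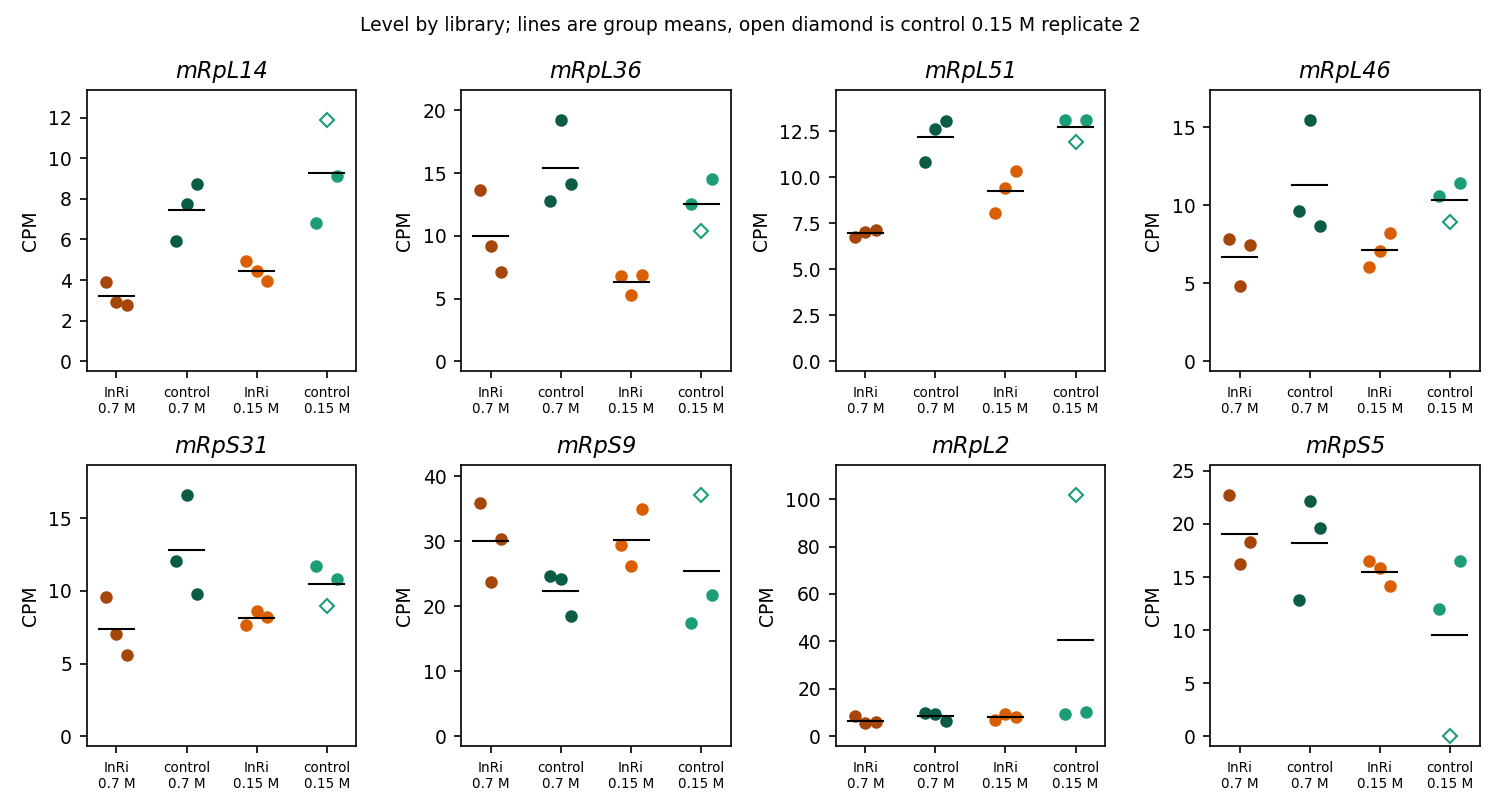
CPM of 8 members in each library, with group means as lines and control 0.15 M replicate 2 as an open diamond. mRpL14, mRpL51 and mRpL46 are lower in all 6 InRi-labelled libraries than in all 6 control libraries. mRpL2 stands at 102 CPM and mRpS5 at 0 in control 0.15 M replicate 2.

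Further members were separated between the genotypes without passing the test, and the counts that follow include the called genes where they were separated. On 0.7 M sucrose 15 of 70 were lower in InRi-labelled libraries without overlap (16.5% of all genes) and 0 were higher (18.5%). On 0.15 M sucrose 11 were lower without overlap (9.33%) and 1 was higher, mRpL19 (13.4%). On both diets 5 were lower without overlap: mRpL14, mRpL46, mRpL51, mRpS26 and mRpS31 (7.14% of members, against 4.35% of all genes). None was higher without overlap on both diets, against 6.49% of all genes. Without control 0.15 M replicate 2, 27 members were lower without overlap on 0.15 M sucrose (18.1% of all genes) and 3 higher (18.2%), and 8 were lower without overlap on both diets (11.4% of members, against 6.93% of all genes). Over all 12 libraries 3 were lower without overlap, mRpL14, mRpL46 and mRpL51, where 2.53% of all genes were.

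mRpL46, of the class without a bacterial relative, had 7.83, 4.83 and 7.45 CPM in InRi-labelled libraries on 0.7 M sucrose, against 9.66, 15.5 and 8.71 CPM in control. Larvae on 0.15 M sucrose had 6.07, 7.10 and 8.22 CPM in InRi-labelled libraries, against 10.6, 8.93 and 11.4 CPM in control. The log2 fold change over both diets was -0.67 (SE 0.22, edgeR adjusted p = 0.0655), and it was -0.72 (adjusted p = 0.0163) without control 0.15 M replicate 2. mRpS31, a protein of the head of the small subunit in mammals, had 9.60, 7.01 and 5.59 CPM in InRi-labelled libraries on 0.7 M sucrose, against 12.03, 16.6 and 9.80 CPM in control. The 0.15 M diet gave it 7.62, 8.59 and 8.22 CPM in InRi-labelled libraries, against 11.7, 8.93 and 10.8 CPM in control. Its log2 fold change over both diets was -0.60 (SE 0.21, adjusted p = 0.0779), and -0.65 (adjusted p = 0.0185) without control 0.15 M replicate 2. mRpS26, which has no bacterial relative, had 8.36, 7.73 and 8.07 CPM in InRi-labelled libraries on 0.7 M, against 9.27, 14.6 and 11.98 CPM in control. Its level on 0.15 M was 5.93, 5.95 and 7.31 CPM in InRi-labelled libraries, against 8.45, 9.67 and 7.71 CPM in control. Within each diet the groups were apart, and over both diets its log2 fold change was -0.49 (SE 0.19, adjusted p = 0.122).

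mRpL34 and mRpS21 show how much 1 library weighed on single genes. mRpL34 had 1.60, 1.93 and 2.17 CPM in InRi-labelled libraries on 0.7 M sucrose, against 4.34, 4.65 and 5.45 CPM in control. Its level on 0.15 M sucrose was 1.83, 3.97 and 2.13 CPM in InRi-labelled libraries, against 4.91, 0 and 7.99 CPM in control. The value of 0 is that of control 0.15 M replicate 2. With it the edgeR log2 fold change over both diets was -1.10 (SE 0.44, adjusted p = 0.129), and without it the value was -1.30 (SE 0.27, adjusted p = 0.00392). mRpS21 had 6.40, 2.66 and 3.73 CPM in InRi-labelled libraries on 0.7 M sucrose, against 7.10, 9.75 and 4.36 CPM in control. With 0.15 M sucrose it had 3.39, 4.30 and 2.74 CPM in InRi-labelled libraries, against 6.27, 1.49 and 12.6 CPM in control. Its groups overlapped on both diets, and it had a log2 fold change of -0.94 (SE 0.37, adjusted p = 0.127) with the library and of -1.12 (SE 0.27, adjusted p = 0.0101) without it.

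mRpS9, whose bacterial relative touches the transfer RNA in the decoding centre, stood on the other side. It had 35.9, 23.7 and 30.4 CPM in InRi-labelled libraries on 0.7 M sucrose, against 24.6, 24.1 and 18.5 CPM in control. The 0.15 M diet gave it 29.5, 26.3 and 35.0 CPM in InRi-labelled libraries, against 17.4, 37.2 and 21.7 CPM in control. Only control 0.15 M replicate 2, at 37.2 CPM, lay above the InRi-labelled libraries of its diet. The log2 fold change over both diets was 0.34 (SE 0.21, edgeR adjusted p = 0.313), and without that library it was 0.50 (SE 0.15, adjusted p = 0.0300). Per kilobase of exon mRpS9 had the highest level of all members in 5 of 6 InRi-labelled libraries and in 0 of 6 control libraries. It gave 5.02% to 6.82% of the members' summed CPM in InRi-labelled libraries, against 3.07% to 4.64% in 5 control libraries and 5.34% in control 0.15 M replicate 2.

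mRpL49, mRpL2 and mRpS14 had large fold changes that leaned on the same library. mRpL49, of the class without a bacterial relative, had 5.51, 3.14 and 4.97 CPM in InRi-labelled libraries on high sucrose, against 9.07, 11.1 and 6.53 CPM in control. Its counterpart values on 0.15 M sucrose were 5.36, 9.42 and 7.46 CPM in InRi-labelled libraries, against 8.45, 42.4 and 12.3 CPM in control. The 42.4 CPM of control 0.15 M replicate 2 stood far above the rest. The log2 fold change of mRpL49 over both diets was -1.22 (SE 0.37, edgeR adjusted p = 0.0540) with that library and -0.76 (SE 0.22, adjusted p = 0.0222) without it. For mRpL2 the values were -1.30 (adjusted p = 0.130) and -0.34 (adjusted p = 0.194), and for mRpS14 they were -1.16 (adjusted p = 0.0872) and -0.59 (adjusted p = 0.0573).

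Several members with a known special role did not pass the test with 12 libraries. mRpL12, which binds elongation factors on the stalk, had 6.05, 2.18 and 5.59 CPM in InRi-labelled libraries on high sucrose, against 5.32, 7.31 and 3.27 CPM in control. The 0.15 M libraries had 5.504, 7.60 and 5.33 CPM of it when InRi-labelled, against 5.72, 10.4 and 9.13 CPM in control. Both pairs of groups overlapped, with a log2 fold change of -0.36 over both diets (SE 0.29, edgeR adjusted p = 0.462). mRpL10, which anchors the stalk, had -0.28 (adjusted p = 0.511). mRpL44, with a fold like that of the nuclease RNase III, had -0.22 (adjusted p = 0.633), and mRpL45, which lies near the membrane at the exit of the tunnel in mammals, had -0.43 (adjusted p = 0.340). mRpS29 had 0.04 (adjusted p = 0.943).

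The 3 paralogs of bacterial S18 had unequal fold changes. mRpS18A had 3.38, 2.42 and 2.48 CPM in InRi-labelled libraries on high sucrose, against 5.13, 6.65 and 3.27 CPM in control. The 0.15 M libraries had 3.81, 4.46 and 3.50 CPM of it when InRi-labelled, against 5.45, 0 and 5.99 CPM in control, where the 0 is replicate 2. Its log2 fold change over both diets was -0.55 (edgeR adjusted p = 0.389), and -0.75 (adjusted p = 0.0215) without that library. mRpS18B had -0.13 (adjusted p = 0.862) and mRpS18C had -0.81 (adjusted p = 0.161), at 3.78 and 4.01 CPM per kb, and differences among the 3 were not tested. Some members barely differed between the genotypes, such as mRpS22 with -0.14 (SE 0.16, adjusted p = 0.609).

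Summed over all 72 genes, the level was 566, 454 and 488 CPM in InRi-labelled libraries on 0.7 M sucrose, against 532, 728 and 602 CPM in control. The 0.15 M sums were 448, 523 and 513 CPM in InRi-labelled libraries, against 540, 697 and 678 CPM in control. The groups were apart on 0.15 M, and on 0.7 M InRi-labelled replicate 1 lay above control replicate 1. The group means were 503 ± 57.1 CPM InRi-labelled and 621 ± 99.4 CPM in control on 0.7 M sucrose, and 495 ± 40.8 CPM InRi-labelled and 638 ± 85.7 CPM in control on 0.15 M sucrose (SD, n = 3 each). Without replicate 2 the control mean on 0.15 M sucrose was 609 CPM. With library totals in place of TMM scaling the separation on 0.15 M sucrose was lost, with 498, 681 and 475 CPM in InRi-labelled libraries, against 566, 615 and 679 CPM in control.

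**Figure D4:**
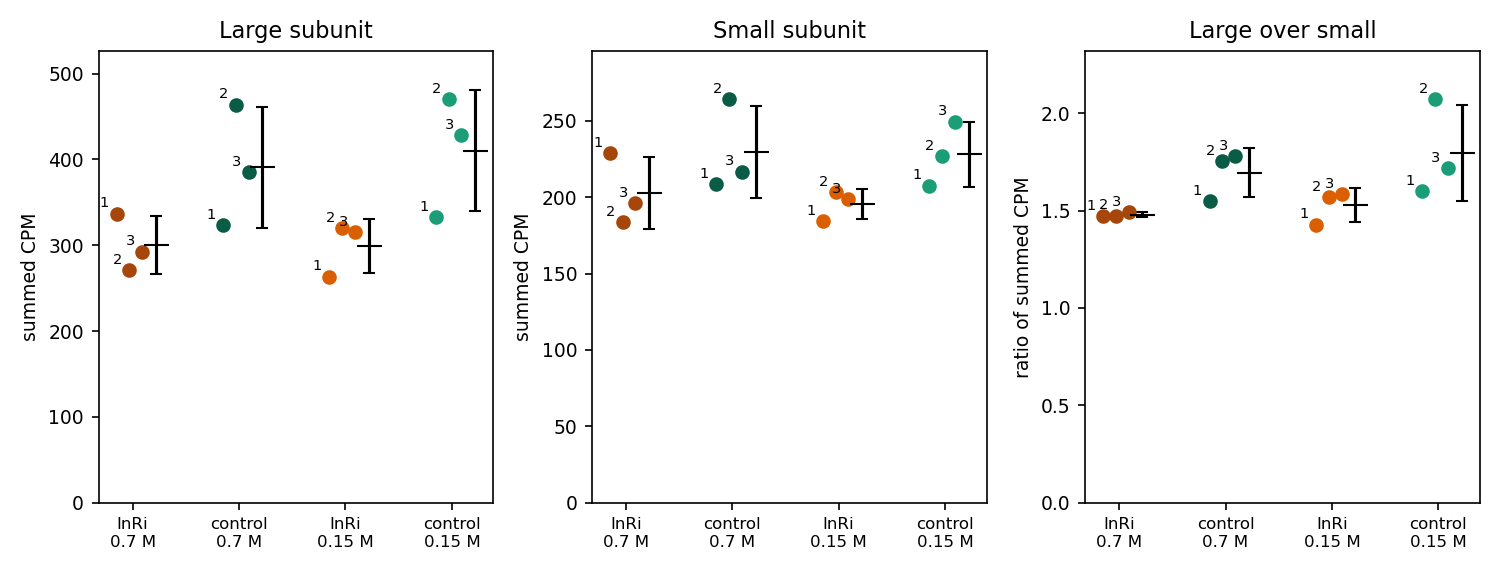
Summed CPM of the large subunit genes (left), the small subunit genes (middle) and their ratio (right) in each library, numbered by replicate, with group mean and SD. Within each diet the ratio is lower in the 3 InRi-labelled libraries than in the 3 control libraries.

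Both subunits shared the shift. Over both diets the median log2 fold change was -0.39 for the 44 tested genes of the large subunit and -0.41 for the 26 of the small subunit, with 38 and 20 genes below 0. Those classed by number as relatives of bacterial proteins (42 tested) and as found in mitochondria only (28 tested) had medians of -0.39 and -0.41. In summed CPM the large subunit stood at 1.47, 1.47 and 1.49 times the small one in InRi-labelled libraries on 0.7 M sucrose, against 1.55, 1.76 and 1.78 times in control. The ratio on 0.15 M sucrose was 1.43, 1.57 and 1.59 in InRi-labelled libraries, against 1.60, 2.07 and 1.72 in control. The groups did not overlap within a diet, and the 2.07 is that of control 0.15 M replicate 2. mRpS9 gave 12.9% to 17.6% of the small subunit's sum in InRi-labelled libraries, against 8.41% to 11.8% in control, or 16.4% in control 0.15 M replicate 2. Without mRpS9 the ratios overlapped on both diets, with 1.75, 1.69 and 1.77 in InRi-labelled libraries against 1.76, 1.93 and 1.95 in control on 0.7 M sucrose. On 0.15 M they were then 1.70, 1.80 and 1.93 in InRi-labelled libraries against 1.75, 2.48 and 1.88 in control. Subunits were assigned by symbol, and the human relatives of mRpS18A and mRpS30 sit in the large subunit despite their names.

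Control 0.15 M replicate 2 lay outside the range of the other libraries for most members. Of the 70 tested genes 17 had 0 counts in it, 34 lay below all other libraries and 18 above all others, which left 18 within their range. Among 5186 genes of the same mean CPM 26.5% had 0 counts there and 30.7% lay within the range of the others, against 24.3% and 25.7% of the members. mRpL2, whose bacterial relative lies at the catalytic centre, had 102 CPM from 137 reads there and 5.56 to 10.3 CPM elsewhere, and it made up 14.6% of the members' sum there and 1.08% to 1.82% elsewhere. mRpL49 had 42.4 CPM and mRpS14 had 39.4 CPM in it. mRpS5, a protein of the messenger entry of the small subunit in bacteria, had 0 counts in it and 11.995 to 22.8 CPM elsewhere. Over the 70 genes its levels had a Spearman correlation of 0.40 to 0.56 with the other libraries, and pairs of other libraries had 0.73 to 0.92, as a description across genes. Control 0.7 M replicate 3, the shallowest library with 872755 counts, had 1 tested member at 0.

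**Figure D5:**
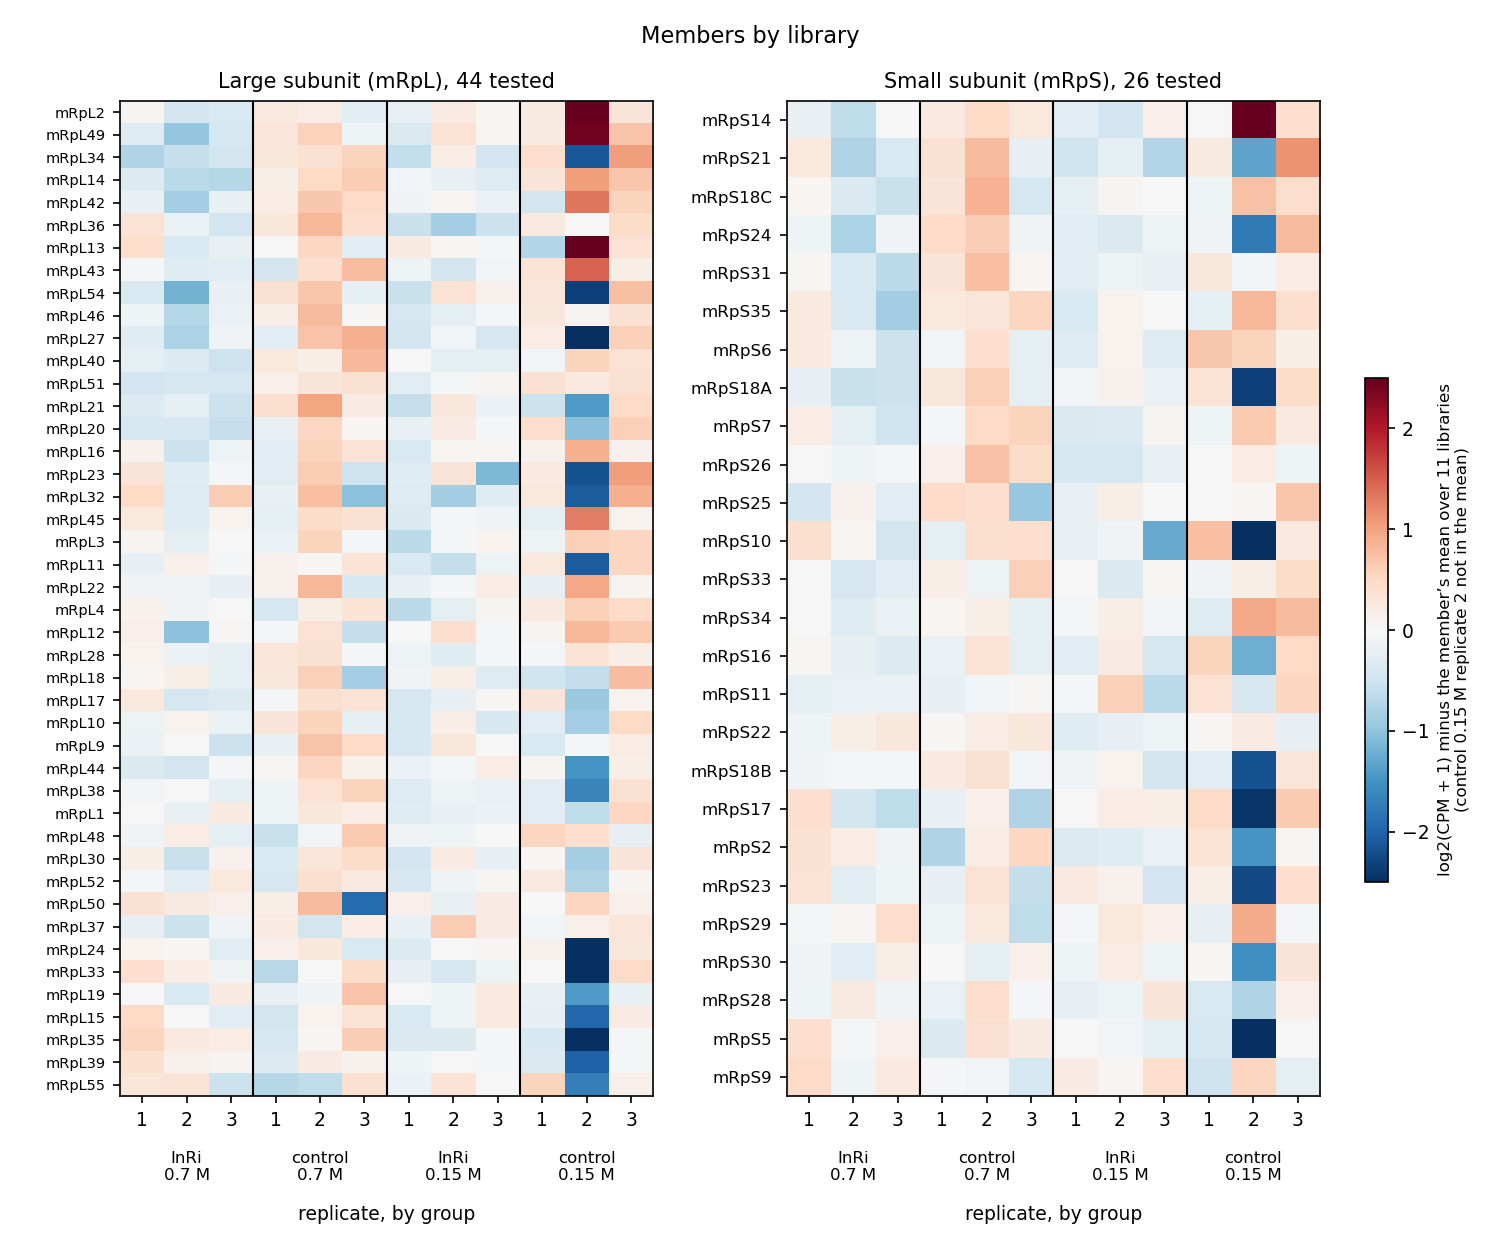
Level of each tested member in each library as log2(CPM + 1) minus the member's mean over the 11 libraries other than control 0.15 M replicate 2, ordered by the log2 fold change over both diets. Blue is lower and red higher. The column of control 0.15 M replicate 2 holds the deepest colours, with 17 members at 0 and mRpL2 at 102 CPM.

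Several other measures moved with the genotype, and their part in the result was not tested. The salivary gland list of 9 genes, which includes the glue genes, summed to 10.2 to 115.2 CPM in InRi-labelled libraries on 0.7 M sucrose, against 2725 to 5787 CPM in control. Its sum on 0.15 M sucrose was 52.4 to 1724 CPM in InRi-labelled libraries, against 1413 to 2803 CPM in control. Over both diets 7 of the 9 were called lower, and Sgs1 and Sgs5 were at 0 in InRi 0.7 M replicate 2. The 1724 CPM belong to InRi 0.15 M replicate 2, and without that library the members' median over both diets was -0.41. That omission cannot separate this list from the genotype, since the other InRi-labelled libraries had at most 143 CPM of it. All 11 tested genes of the muscle list were below 0 over both diets, with 1 called and a median of -0.74. Without control 0.15 M replicate 2, which holds the highest sum, 10 of 11 were below 0 with a median of -0.32, and on 0.15 M sucrose alone 5 of 11 were below 0 with a median of 0.14, against 9 of 11 and -0.66 with it. It summed to 1720 to 3981 CPM in InRi-labelled libraries on 0.7 M, against 5052 to 6144 CPM in control, and on 0.15 M to 3019 to 5417 CPM in InRi-labelled libraries, against 2689 to 15894 CPM in control. TpnC41C of that list was at 0 in 9 of 12 libraries. The midgut list summed to 229 to 745 CPM in InRi-labelled libraries on 0.7 M, against 461 to 599 CPM in control, and on 0.15 M to 712 to 1307 CPM in InRi-labelled libraries, against 1347 to 3003 CPM in control. Of its genes 11 of 12 were below 0 with 0 called by edgeR (5 lower at an unadjusted p under 0.05), and 2 were called lower without that library. Hemocyte markers summed to 924 to 1000.1 CPM in InRi-labelled libraries on 0.7 M, against 541 to 749 CPM in control, and on 0.15 M to 766 to 1135 CPM in InRi-labelled libraries, against 794 to 1916 CPM in control. Of these, 7 of 10 were below 0 and 1 was called higher. Of 8 fat body markers 1 was called higher and 1 lower, and 3 and 2 without that library.

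Gene length also went with the fold change. Over both diets the 36 members of at most 783 bases of exon had a median of -0.45 and the 34 longer ones of -0.28. Among all genes the 734 of at most 783 bases had a median of -0.28, and the 7764 longer ones of 0.00. Against genes of like length the members lay lower by a smaller margin when short. The short members on 0.7 M sucrose had a median of -0.30 and the short genes of -0.29, and the longer members had -0.36 where the longer genes had -0.02.

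Sucrose itself left the group close to where it was. In the InRi-labelled libraries, 0.7 M against 0.15 M sucrose gave a median log2 fold change of 0.01, against -0.02 for all genes, and in control it gave 0.03 for the members and 0.03 for all genes. In the InRi-labelled libraries edgeR called 0 of 70 (1.26% of all genes), with 1 higher, mRpL36, and 0 lower at an unadjusted p under 0.05 (11.4% of all genes in either direction). In control it called 0 of 70 (0.277% of all genes), with 0 higher and 1 lower, mRpL2, at an unadjusted p under 0.05 (10.5%). Averaged over the genotypes it called 0 (2.34% of all genes), with 1 higher and 2 lower at an unadjusted p under 0.05 (15.6%), and DESeq2 and limma-voom called 0 in each of the 3 comparisons. When control 0.15 M replicate 2 was left out edgeR again called 0 members in each, where it called 6.93% of all genes in InRi-labelled libraries, 1.52% in control and 7.34% over both genotypes. The median over both genotypes was 0.03, and in simulated data 47% of 2-fold changes were recovered there.

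Within InRi-labelled libraries some members were separated by diet without passing the test, in numbers not far from the share over all genes. There 7 of 70 members were higher on 0.7 M sucrose without overlap (14.7% of all genes) and 5 of 70 were lower (12.2%). mRpL36 had 13.7, 9.18 and 7.14 CPM on 0.7 M sucrose, against 6.77, 5.29 and 6.85 CPM on 0.15 M sucrose (log2 fold change 0.68, SE 0.30, edgeR adjusted p = 0.416). mRpL51 had 6.76, 7.01 and 7.14 CPM on 0.7 M, against 8.04, 9.42 and 10.4 CPM on 0.15 M (log2 fold change -0.41, SE 0.23, adjusted p = 0.588). In control 0 members were separated by diet in either direction, where 8.12% of all genes were higher and 6.2% lower. When control 0.15 M replicate 2 was left out there were 2 higher (13.7% of all genes) and 4 lower (14.5%), and mRpL2 had 9.66, 9.30 and 6.53 CPM on 0.7 M, against 9.54 and 10.3 CPM on 0.15 M.

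Whether the difference between genotypes depended on the diet was tested as an interaction. edgeR called 0 of the 70 members and 0% of all genes, with 0 members and 456 of all genes (5.26%) at an unadjusted p under 0.05, and DESeq2 and limma-voom called 0 members. Leaving out control 0.15 M replicate 2, it called 0 members and 0.0115% of all genes, with 2 members at an unadjusted p under 0.05. The members' median was -0.03, as it was for all genes. mRpL21 had the smallest p, with a log2 difference of -1.32 (SE 0.72, adjusted p = 0.895). It had 2.67, 2.90 and 2.17 CPM InRi-labelled against 5.13, 8.20 and 4.36 CPM in control on 0.7 M sucrose. With 0.15 M sucrose it had 2.12, 4.63 and 3.20 CPM InRi-labelled against 2.18, 0.744 and 5.42 CPM in control. In simulated data this test recovered 0% of 2-fold and 4% of 4-fold changes, so differences of the size seen here were not detectable.

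The members varied together to an unequal degree. Correlated with the mean of the other members over 11 libraries, on log2(CPM + 1), they had a median r of 0.62, as a description with no test. mRpS21 (0.89), mRpL46 (0.89), mRpL3 (0.84) and mRpS24 (0.81) followed the mean best. mRpS9 (-0.39), mRpS29 (-0.13), mRpL55 (-0.12) and mRpL19 (-0.04) followed it least. mRpS29 is the relative of the human GTP-binding protein DAP3, and mRpL3 is a core protein of the large subunit in bacteria. With all 12 libraries mRpS21 and mRpS9 were again at the ends, at 0.93 and -0.55, and mRpS24 (0.87) and mRpS29 (-0.50) stayed near them. The other ranks changed with control 0.15 M replicate 2. mRpL46 then had 0.68, mRpL3 0.30, mRpL55 0.36 and mRpL19 0.45. In their place mRpL20 (0.86) and mRpL17 (0.85) were near the top, and mRpL2 (-0.48) and mRpL13 (-0.40) near the bottom. The points share depth and scaling, and a low count weakens such a correlation.

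A few proteins of the same ribosome carry other names and fell outside the rule. tko, the small subunit protein whose mutation gives bang-sensitive flies, had 6.05, 5.08 and 5.28 CPM in InRi-labelled libraries on 0.7 M sucrose, against 9.46, 20.2 and 7.62 CPM in control. Larvae on 0.15 M sucrose had 6.49, 8.92 and 5.18 CPM in InRi-labelled libraries, against 12.8, 43.9 and 15.1 CPM in control. It fell over both diets (log2 fold change -1.49, SE 0.35, edgeR adjusted p = 0.0151), and the value was -1.15 (adjusted p = 0.00329) without control 0.15 M replicate 2. bonsai, another small subunit protein, had 0.33 (SE 0.35, adjusted p = 0.582). Rlc1, the gene now named mRpL47 and chosen after its values were seen, had -0.48 (adjusted p = 0.269), and -0.62 (adjusted p = 0.0251) without that library.

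The RNA of the mitochondrial ribosome and the messages it translates come from the mitochondrial genome. Those transcripts summed to 26183, 9630 and 16027 CPM in InRi-labelled libraries on 0.7 M sucrose, against 39767, 61371 and 32242 CPM in control. Their sum on 0.15 M sucrose was 17925, 25607 and 23253 CPM in InRi-labelled libraries, against 23306, 512 and 66671 CPM in control. Over both diets all 11 tested were below 0 (median -1.03) and edgeR called 0, with 1 lower at an unadjusted p under 0.05. Without control 0.15 M replicate 2, which holds the 512 CPM, 10 of the 11 were called lower and the median was -1.32. Most of this sum was mt:lrRNA, the large ribosomal RNA. Ribosomal RNA was depleted before sequencing.

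Other nuclear genes for mitochondrial translation and upkeep had medians on either side of 0, and few were called over both diets, where 11.4% of all genes were. Of 8 tested translation factors, edgeR called 1 higher over both diets, CG13163, now named mIF3, an initiation factor (log2 fold change 1.04, SE 0.31, adjusted p = 0.0487). The median of the 8 was -0.25, with 5 below 0. Of 17 tested genes for charging transfer RNAs, 1 was called lower, gatA, part of the enzyme that makes glutaminyl-tRNA (log2 fold change -0.94, SE 0.24, adjusted p = 0.0238), and the median was 0.13. Of 10 genes of mitochondrial DNA maintenance and transcription 0 were called (0 at an unadjusted p under 0.05), and the median was 0.04. Of 8 regulators of nuclear mitochondrial genes 0 were called (3 at an unadjusted p under 0.05), with a median of 0.18, and of 12 import genes 1 was called higher, Tim9a (log2 fold change 1.31, SE 0.37, adjusted p = 0.0376), with a median of 0.02. In the fit without control 0.15 M replicate 2, where 22.8% of all genes were called, the counts and some signs were different. The medians were then -0.15 for the translation factors, -0.03 for transfer RNA charging, 0.02 for DNA maintenance, 0.04 for the regulators and -0.03 for import. Of the factors 1 was called higher and 2 lower, CG6412 (-0.40) and EfTuM (-0.46), which is the elongation factor that brings transfer RNAs to the ribosome. Of the charging genes 0 were higher and 1 lower, of the DNA maintenance genes 0 higher and 1 lower (mtSSB, -0.89), of the regulators 1 higher and 1 lower, and of the import genes 1 higher and 2 lower.

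Respiratory chain and cytosolic ribosome genes were set beside the members, and the medians of both lists lay above that of the members. Over both diets 11.4% of all genes were called, 5.13% as lower. Of 62 tested nuclear subunits of the respiratory chain 3 were called lower over both diets and 0 higher, with a median of -0.23 and 44 below 0. The 3 were the complex I subunits CG3621 (log2 fold change -1.59), CG12400 (-0.89) and CG10320 (-1.18). Without control 0.15 M replicate 2 the calls were 7 lower (11% of all genes) and 3 higher (11.8% of all genes). The 3 higher were CG3446, CG9603 and Cyt-c-p. The log2 fold changes of the complex I subunits just named were then -1.04 for CG3621, -0.84 for CG12400 and -0.70 for CG10320. Of 84 tested cytosolic ribosomal protein genes 2 were called higher, RpL27 (0.83) and RpL35 (0.74), and 1 lower, RpLP2 (-1.70), with a median of -0.20 and 55 below 0. In the fit without that library 7 were called higher (11.8% of all genes) and 12 lower (11%), and RpLP2 was at -0.86. The medians were then -0.15 for the respiratory chain subunits and -0.09 for the cytosolic ribosomal proteins, against -0.35 for the mitochondrial ribosomal proteins. Relative to the cytosolic ribosomal proteins, the members' summed CPM was 0.00632, 0.00520 and 0.00563 in InRi-labelled libraries on 0.7 M sucrose, against 0.00578, 0.00659 and 0.00682 in control. The 0.15 M ratios were 0.00572, 0.00759 and 0.00603 in InRi-labelled libraries, against 0.00714, 0.00420 and 0.00799 in control. These ratios overlapped between the genotypes on both diets.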

How the data were processed

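Whole-number counts of reads per gene symbol for 12 libraries were analysed as deposited by the authors. Per the labels' protocols, libraries were made after RiboZero subtraction and read on an Illumina instrument. TopHat 1.3.2, Bowtie 0.12.7, Cufflinks 1.1.0 and the build dm3 are named in the submitters' processing notes. The counting tool, strand setting and annotation were not given in the sources used here, so reads of overlapping or antisense genes cannot be told apart. Each column was matched to a library title by its sucrose level, genotype and number, with 0 columns left over. The smallest chi-square per gene within a group was 3.81, so no pair of libraries looks like a repeat deposit.

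The filter filterByExpr, with a minimum count of 10 and total of 15, left 8662 genes. Sizes were scaled by TMM, and edgeR 4.0.16 fitted a quasi-likelihood model with 1 mean per group to all 12 libraries (R 4.3.3, common dispersion 0.107). P-values were adjusted by Benjamini-Hochberg over all tested genes, with a threshold of 0.05. The interaction is the difference on 0.7 M minus that on 0.15 M sucrose. The fit was tested on simulated data with 100 genes changed 2-fold and 100 changed 4-fold, all drawn from genes averaging at least 5 CPM. DESeq2 1.42.0 and limma 3.58.1 were alternatives, with other scalings, no filter, a replicate block, a threshold of 0.10, only the groups compared, and each library left out in turn. Figures were drawn with matplotlib 3.10.9 under Python 3.11.15.

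The members and gene lists were chosen with earlier results of these data known. Members were named if called in any comparison, if among the 8 smallest p in one, or at the ends of abundance (5 each) or likeness (4 each). Genes given for their known role, or to name a count of 5 or fewer, were chosen after their values were seen. Of 15222 symbols 11526 were current, 3368 matched as synonyms, 159 were ambiguous and 169 had no match in a later annotation, used for names and exon lengths only. All 72 members matched. A search for promoter motifs was not run.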

Additional observations from a re-analysis of the deposited data

How the results depend on the processing

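Counts per member were low, with a median of 6 to 40 reads per library. In simulated data 5% of 2-fold changes, placed in genes averaging at least 5 CPM, were recovered between the genotypes within a diet. The direction of the members' medians between the genotypes held in every alternative run, from -0.42 to -0.17 on 0.15 M sucrose, from -0.42 to -0.21 on 0.7 M and from -0.44 to -0.26 over both diets. With library totals in place of scaling factors the median of all genes was 0.21 on 0.15 M sucrose and -0.14 on 0.7 M, and the members' medians were -0.17 and -0.42, with 56 and 54 of 70 members below the median of all genes, as under TMM. The median of all genes moved to -0.27 for sucrose in InRi-labelled libraries, -0.11 for sucrose over both genotypes and -0.30 for the interaction. Sucrose and interaction medians lay between -0.29 and 0.21 and changed sign with the setting. The number of members called varied more. Over both diets it was 3, and it was 1 with library totals, 7 with DESeq2, 13 with limma-voom sample weights, 1 with no filter, 9 at a threshold of 0.10, and 1 to 14 when 1 library was left out (14 without control 0.15 M replicate 2 and 7 without its replicate 1). On 0.15 M sucrose it was 0, and 1 with DESeq2, 2 with limma-voom and 0 to 3 with 1 library left out (3 without control 0.15 M replicate 1: mRpL2, mRpL49 and mRpS14). On 0.7 M sucrose it was 0, and 3 with limma-voom, 6 when only its 2 groups were fitted, 2 at a threshold of 0.10 and 0 to 7 with 1 library left out. mRpL14 was called over both diets in each of these settings. Where a library other than control 0.15 M replicate 2 was left out, the share of all genes called is not given here. Nor is it given for library totals or no filter over both diets. Whether the members' counts there follow the calls over all genes was not tested. The mean of the summed CPM in InRi-labelled libraries on 0.15 M sucrose was 551 with library totals. With the replicate number as a block 1 member was called over both diets, mRpL14 (adjusted p = 0.0273). Whether a replicate number stands for a shared batch is not known. Libraries of different groups were compared by their deviations from their own group's mean, on log2(CPM + 1) over all tested genes. Same-numbered pairs had correlations of -0.38 to 0.17, and pairs with different numbers of -0.23 to 0.51. By this measure 1 of 12 libraries was most like a library of its own number. With so few libraries in a group this cannot exclude a batch. Calls over all genes also moved by more than 1.5 times: over both diets 984 genes were called, against 1526 with DESeq2, 2111 with limma-voom and 1975 without control 0.15 M replicate 2. On 0.7 M sucrose the count was 469, against 836 with DESeq2, 1587 with limma-voom and 1701 with only its groups fitted. On 0.15 M sucrose it was 150, against 553 with DESeq2, 541 with limma-voom and 0 with only its groups fitted. At a threshold of 0.10 these 3 counts were 1532, 747 and 352, and with the block the 0.7 M count was 305. For sucrose in InRi-labelled libraries 109 genes were called, against 43 with library totals, 312 with DESeq2, 614 with limma-voom, 337 with only its groups fitted, 53 with the block and 168 at 0.10. For sucrose in control 24 were called, against 12 with library totals, 180 with DESeq2, 132 with limma-voom, 58 with no filter, 0 with only its groups fitted, 11 with the block and 73 at 0.10. For sucrose over both genotypes 203 were called, against 482 with DESeq2, 673 with limma-voom and 351 at 0.10, and for the interaction 0, against 17 with DESeq2 and 4 with limma-voom. The causes of these differences were not tested.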
